A study of Mus musculus with 48 samples.

Results

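The genes described here are 10 transcription factors of the MYC, MAX and MXD network: Myc, Mycn, Mycl, Max, Mlx, Mnt, Mxd1, Mxd3, Mxd4 and Mxi1. They were found by their Ensembl identifiers in a matrix of 54752 genes, and all 10 were found. Their RNA was followed in 48 libraries of lymphatic endothelial cells (LECs), blood endothelial cells (BECs) and cardiomyocytes. Between the endothelial populations Myc was about 3 times as high in LECs as in heart BECs, Mycn was 6.38-fold lower in heart LECs than in heart BECs, and several of the antagonists that compete for MAX were also lower in LECs. In cardiomyocytes 9 of 10 members were lower than in heart BECs, beside 64.1% of all 23213 genes tested. Among these 9, Mycl met the filter on low values only through heart BECs. After quantile normalization 5 members were lower, beside 6815 of these genes. No member passed the test in any comparison of treatments.

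MYC proteins activate transcription only as dimers with MAX, and the dimers bind the E-box, a short DNA element with the core sequence CACGTG. MXD1, MXI1, MXD3, MXD4 and MNT bind MAX as well, occupy the same element and recruit SIN3 and histone deacetylases, so that they act as repressors and antagonists of MYC. MLX is a related partner that dimerizes with some MXD proteins and with MNT, and with the glucose-responsive factors MLXIP and MLXIPL. In endothelium MYC is known for driving growth and biosynthesis and FOXO1 is known to restrain it, and MYCN and MYCL are paralogs best known from the nervous system and other developing tissues.

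All mice were C57BL/6 and carried Prox1-eGFP, a reporter placed behind an internal ribosome entry site at the endogenous Prox1 locus, so eGFP marks any cell that transcribes Prox1. Control mice (ctrl, 4 mice, 8 to 16 months old by the labels) received bovine serum albumin by minipump. The angII group (5 libraries per population, 8 to 16 months) received angiotensin II, a hormone that raises blood pressure and damages the heart, together with albumin. The angII+VEGFC group (3 mice, 8 to 15 months) received angiotensin II and VEGFCc156s, a VEGF-C variant that acts on the lymphatic receptor VEGFR3. Each population had 12 libraries: heart LECs, diaphragm LECs and heart BECs were sorted, and the cardiomyocytes are the cells pelleted after digestion, with no sort. The heart populations came from the same 12 mice, 11 of which also gave the diaphragm library, and 1 diaphragm angII library came from another mouse. In such bulk samples fewer cells of a type and less RNA per cell cannot be told apart.

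The E-box itself stands in the promoters of several members. RefSeq promoter entries of GRCm38.p6, from 250 bases before to 50 bases after a start site, were at hand for 9 of the 10 members, all but Myc, in 11 entries. The element CACGTG, which reads the same on both strands, occurred in those of 4 members, Max, Mlx, Mnt and Mxd4, and in 7.15% of all 32851 promoter entries of this length. The 30 bases around each match are shown 5′ to 3′ on the strand of the gene, with the E-box in capitals, because this is the element that dimers of these proteins bind. A match describes the letters of the window and is not evidence of binding.
Max, chr12:76962234-76962263, minus strand, E-box starting 3 bases before the start site: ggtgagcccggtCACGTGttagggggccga
Mlx, chr11:101087238-101087267, plus strand, 40 bases before: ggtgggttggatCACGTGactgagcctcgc
Mnt, chr11:74830789-74830818, plus strand, 123 bases before: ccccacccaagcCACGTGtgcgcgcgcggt
Mxd4, chr5:34187912-34187941, minus strand, 219 bases before: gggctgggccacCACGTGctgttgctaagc

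The deposited values are TPM, a transcript level scaled to transcript length and to the library, so levels of different genes can be set side by side. They keep no read count, so the depth is unknown. Between 12924 and 25896 genes reached 1 TPM in a library. In heart LECs the number was 19957 to 25896 in angII, 16131 to 24086 in ctrl and 16756 to 18884 in angII+VEGFC, and angII and ctrl overlapped. In diaphragm LECs it was 20062 to 23691 in angII, 12924 to 18116 in ctrl and 14963 to 18373 in angII+VEGFC. Whether the number depends on treatment was not tested. The summed level of the LEC markers Prox1, Lyve1, Flt4 and Pdpn was 1582 to 2540 TPM in heart LECs, 4092 to 6597 in diaphragm LECs, 76.0 to 129 in heart BECs and 25.7 to 47.2 in cardiomyocytes. The cardiomyocyte libraries held 5459 to 14234 TPM of 6 cardiomyocyte markers, but also 2116 to 4672 TPM of 5 fibroblast markers, 155 to 264 TPM of 3 pan-endothelial markers and 58.9 to 187 TPM of 5 leukocyte markers. The sorted libraries also held fibroblast markers, at 686 to 1573 TPM in heart LECs, 123 to 991 in diaphragm LECs and 416 to 3614 in heart BECs. The part of fibroblast RNA in the differences below was not tested. Hemoglobin RNA, counted over 4 genes, was 5212 to 31233 TPM in heart BECs, 8927 to 24840 in cardiomyocytes, 6.98 to 6525 in heart LECs and 12.6 to 4853 in diaphragm LECs, and its part in the differences below was not tested.

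Myc (ENSMUSG00000022346, chr15:61985391-61990374 of GRCm38) had the highest mean of the members in each population. Its level was 159 to 548 TPM in heart LECs (median 283), 186 to 398 TPM in diaphragm LECs (median 307), 31.8 to 221 TPM in heart BECs (median 106) and 47.5 to 193 TPM in cardiomyocytes (median 115). The order of the means was diaphragm LEC (304 ± 62.9 TPM, SD, n = 12), heart LEC (294 ± 105), cardiomyocyte (112 ± 48.3) and heart BEC (110 ± 63.8). The first and the second differed by less than their SD, as did the third and the fourth.

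Mycn (ENSMUSG00000037169, chr12:12936093-12941914) followed another order. Heart BECs held 55.9 to 100.2 TPM (median 85.0), above every one of the other 36 libraries. Heart LECs held 0.785 to 37.9 TPM (median 14.7), cardiomyocytes 8.42 to 20.9 TPM (median 13.1) and diaphragm LECs 2.23 to 17.7 TPM (median 8.08). The last 3 populations overlapped. Mycn therefore made up 47.1 ± 18.0% (SD, n = 12) of the summed Myc, Mycn and Mycl level in heart BECs, against 13.0 ± 5.63% in cardiomyocytes, 6.04 ± 4.18% in heart LECs and 3.00 ± 1.39% in diaphragm LECs. In heart BECs the ratio of Myc to Mycn ranged from 0.317 to 3.31, and Myc was above Mycn in 7 of the 12 libraries. In all libraries of the other populations Myc was above Mycn, by a factor of at least 3.36.

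Mycl (ENSMUSG00000028654, chr4:122995652-123002485) was near or at 0 throughout. It was listed at 0 in 9 of 12 heart LEC, 8 of 12 diaphragm LEC and 1 of 12 heart BEC libraries, and its highest value was 2.12 TPM, in a heart BEC library.

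**Figure D1:**
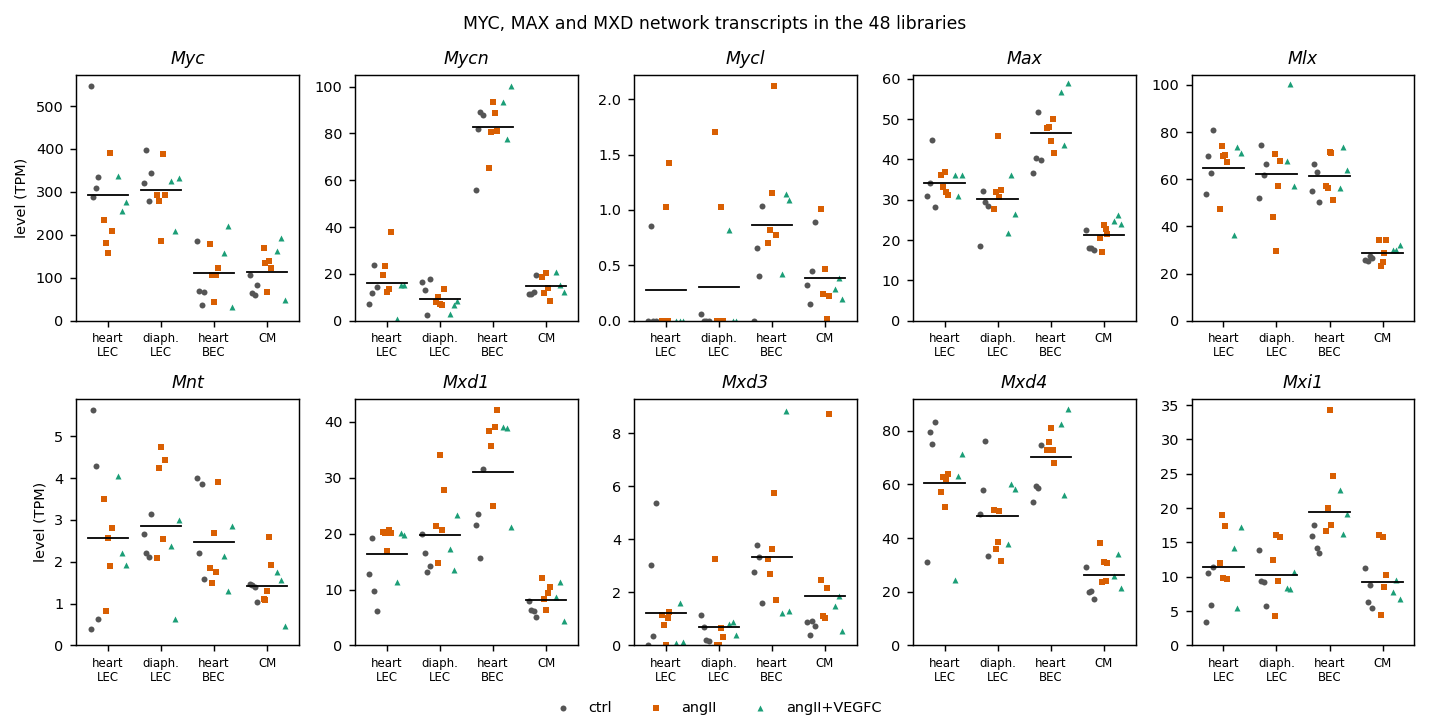
Level of the 10 members (TPM, linear axes that differ between panels) in the 48 libraries, by population (CM, cardiomyocyte) and treatment (grey circles ctrl, orange squares angII, green triangles angII+VEGFC), with the mean of 12 libraries as a line. Myc was highest in the LECs, Mycn was at 55.9 to 100.2 TPM in heart BECs and at most 37.9 TPM elsewhere, and the repressors Mxd1 and Mxi1 had their highest means in heart BECs.

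The dimer partners and the repressors were mostly more abundant in heart BECs. Max (ENSMUSG00000059436, chr12:76937269-76962201), the obligate partner, was at 36.7 to 59.0 TPM in heart BECs (median 46.1), 28.2 to 44.7 TPM in heart LECs (median 33.7), 18.5 to 45.9 TPM in diaphragm LECs (median 29.98) and 16.9 to 26.2 TPM in cardiomyocytes (median 21.9). Mlx (ENSMUSG00000017801, chr11:101087277-101092207) had endothelial means that lay within 1 SD of each other, 64.7 ± 12.8 TPM in heart LECs, 62.4 ± 17.4 TPM in diaphragm LECs, 61.3 ± 8.08 TPM in heart BECs, and a mean of 28.6 ± 3.66 TPM in cardiomyocytes (SD, n = 12 each). Of its exon bases, 385 (19.3%) overlap exons of Psmc3ip on the opposite strand, and the library kit does not mark the strand.

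Mxd4 (ENSMUSG00000037235, chr5:34173883-34187720) was the most abundant repressor and made up 55.7 ± 5.45% of the summed MXD and MNT level in heart BECs and 64.8 ± 8.61% in heart LECs. Its level was 53.5 to 88.2 TPM in heart BECs (median 72.9), 24.6 to 83.2 in heart LECs (median 62.9), 31.3 to 76.1 in diaphragm LECs (median 49.5) and 17.2 to 38.3 in cardiomyocytes (median 24.9). Mxd1 (ENSMUSG00000001156, chr6:86647042-86669161), a MAX partner that many cells induce as they stop dividing, was at 15.7 to 42.2 TPM in heart BECs (median 33.7), 6.25 to 20.7 in heart LECs (median 19.5), 13.1 to 34.04 in diaphragm LECs (median 18.6) and 4.38 to 12.1 in cardiomyocytes (median 8.13). Heart BECs and cardiomyocytes did not overlap for Mxd1, Mxd4, Max, Mlx or Mycn, in a comparison where 64.1% of 23213 genes were called lower in cardiomyocytes. The share of all genes without overlap is not given, so this is not read as particular to the members.

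Mxi1 (ENSMUSG00000025025, chr19:53310518-53375810) was at 13.4 to 34.3 TPM in heart BECs and 3.43 to 19.0 TPM in heart LECs, with medians of 17.5 and 11.0. Mnt (ENSMUSG00000000282, chr11:74830920-74845725), the most widely expressed antagonist of MYC, stayed between 0.402 and 5.62 TPM in all 48 libraries. Mxd3 (ENSMUSG00000021485, chr13:55325168-55329823), an MXD protein linked to proliferating cells, was at 1.21 to 8.84 TPM in heart BECs and was listed at 0 in 2 libraries of each LEC population. Smaller shares of their exon bases lie under exons of an opposite-strand gene for Mxd4 (6.06%, Gm42846), Mxd3 (4.43%, Prelid1) and Mxi1 (2.84%, Gm10197).

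Heart LECs were compared with heart BECs over all 3 treatments with limma on log2(TPM + 1), so every difference below is a log2 difference on that scale and understates changes of low genes. Myc was higher in heart LECs and 6 members were lower: Mycn, Mxd3, Mxd1, Mxi1, Mycl and Max. The 7 called of 10 stand beside 17.6% of all 32754 genes called (5760 genes), and the median log2 difference was -0.52 over the members and 0.15 over all genes. Of all genes called, 50.9% were higher in heart LECs, against 40.6% after quantile normalization, which left 1 member higher and 6 lower.

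Myc was higher by 1.61 (SE 0.26, limma adjusted p = 9.31e-06), a 3.05-fold difference, and the LECs exceeded the BECs in 12 of 12 mice, although the libraries of the populations overlapped. Mycn was lower by 2.67 on the log2 scale (log2 difference -2.67, SE 0.30, adjusted p = 1.1e-08), in 12 of 12 mice and with no overlap. Within the sequencing batches the Myc difference was 1.30 and 1.86 and the Mycn difference -2.10 and -2.99. Both batches thus showed the same signs, and so did each treatment group, where the Myc difference was 2.26 in ctrl, 1.12 in angII and 1.46 in angII+VEGFC, and the Mycn difference -2.48, -1.99 and -3.55.

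Of the repressors, Mxd1 was lower by 0.89 (log2 difference -0.89, SE 0.16, adjusted p = 5.81e-05) in 12 of 12 mice. Mxi1 was lower in 12 of 12 mice as well (-0.81, SE 0.21, adjusted p = 0.0062), with within-batch differences of -1.31 and -0.29. Mxd3 differed by -1.07 (SE 0.31, adjusted p = 0.0131), and this call was lost without heart BEC angII+VEGFC replicate 2 (-0.83, adjusted p = 0.0627), the library with the 8.84 TPM. Mxd4 (-0.30, adjusted p = 0.242) and Mnt (-0.03, adjusted p = 0.949) did not pass.

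Max, the shared partner, was lower by 0.45 on the log2 scale (-0.45, SE 0.12, adjusted p = 0.00509) and in 12 of 12 mice, and Mlx did not pass (0.04, 95% interval -0.25 to 0.32). Mycl passed only just (-0.60, SE 0.21, adjusted p = 0.0408). Its call was lost without a filter on low values (adjusted p = 0.0553), with the number of detected genes as a covariate (0.168) and without any one of 16 of the 36 libraries.

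Diaphragm LECs were set against the same heart BEC libraries, so this comparison is not independent of the previous one. Here 7 of 10 members passed, beside 16.6% of the 32754 genes, with Myc higher by 1.66 (SE 0.26, adjusted p = 4.22e-06) and Mycn at a log2 difference of -3.26 (SE 0.30, adjusted p = 8.51e-11). Myc was higher in the diaphragm LECs of 10 of 11 mice and Mycn lower in 11 of 11. Max (-0.67), Mxd1 (-0.66), Mxi1 (-0.89), Mxd3 (-1.32) and Mxd4 (-0.55) also passed, with adjusted p between 2.85e-05 for Max and 0.0176 for Mxd4. The Mxd4 call was lost without diaphragm LEC angII+VEGFC replicate 1 (-0.47, adjusted p = 0.0695). Mycl (-0.56, adjusted p = 0.0662), Mnt (0.09) and Mlx (0.02) did not pass. Mycl was called under 8 alternatives, among them a pseudocount of 0.1 (-2.02, adjusted p = 0.0249) and quantile normalization (-0.69, adjusted p = 0.0128). The other 6 each left out 1 library: diaphragm LEC angII replicate 1 or 4, diaphragm LEC angII+VEGFC replicate 1, heart BEC ctrl replicate 1, heart BEC angII+VEGFC replicate 1 or heart LEC angII replicate 5.

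**Figure D2:**
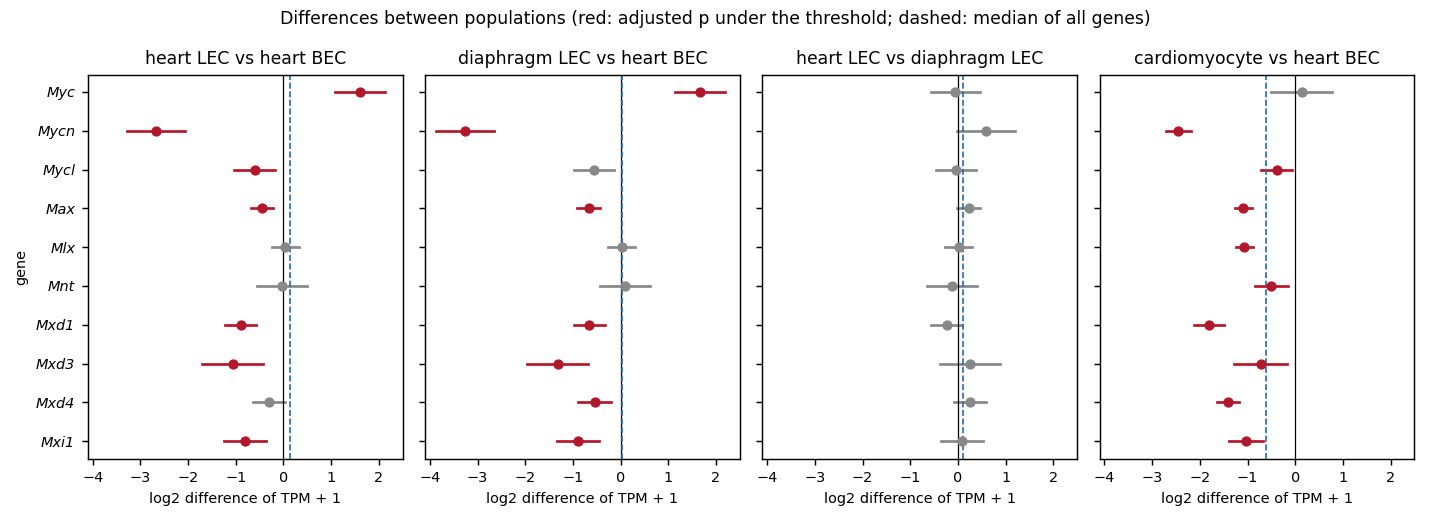
Log2 difference of TPM + 1 between populations for each member, with its 95% confidence interval (points and lines; red, adjusted p under 0.05; grey, not called; dashed line, median of all genes tested). Myc lies to the right and Mycn far to the left in both LEC comparisons with heart BECs, the 2 LEC populations show no call, and 9 of 10 members lie to the left in cardiomyocytes.

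These opposite differences change the proportions of activators and repressors in the RNA. The summed level of Myc, Mycn and Mycl was 1.97 to 11.6 times that of the 5 repressors in heart LECs (median 2.81), 2.07 to 6.40 times in diaphragm LECs (median 3.87), 0.948 to 2.48 times in heart BECs (median 1.43) and 1.59 to 4.02 times in cardiomyocytes (median 2.51). The highest value belonged to heart LEC ctrl replicate 1, which had the highest Myc (548 TPM) and a low Mxd4 (31.2 TPM). The sum exceeded the Max level by 4.65 to 18.0 times in heart LECs and 2.26 to 6.89 times in heart BECs. These are proportions of RNA, and protein was not measured here.

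The level of Mycn ran alongside the summed level of 4 genes typical of blood endothelium. The markers Flt1, Nos3, Cd36 and Aqp1 summed to 3758 to 6773 TPM in heart BECs, 774 to 2107 TPM in heart LECs, 380 to 783 TPM in diaphragm LECs and 619 to 1035 TPM in cardiomyocytes, and each of the 4 had a mean of 1 TPM or more in every population. Both were set against their own median in heart BECs. In heart LECs the median marker sum was at 19.1% and Mycn at 17.3%, in cardiomyocytes at 16.5% and 15.4%, and in diaphragm LECs at 8.70% and 9.51%. Single markers differed from the sum, and the 3 with the largest called differences are given, which leaves out Nos3. In diaphragm LECs against heart BECs the log2 difference was -5.59 for Flt1, -5.19 for Cd36 and -2.40 for Aqp1, beside -3.26 for Mycn. In heart LECs it was -2.09, -3.04 and -2.07, beside -2.67 for Mycn. Whether RNA of BECs contributes to the Mycn of the other libraries was not tested.

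Within a population the relation passed after adjustment in cardiomyocytes and heart BECs by Pearson's r, and in no population by Spearman's rho. It belongs to a family of 12 relations chosen with values known, tested by permutation and adjusted together. Pearson's r between the logarithms of the marker sum and Mycn was 0.466 in heart LECs (Spearman's rho 0.538, permutation p = 0.0569 and 0.0734, adjusted p = 0.129 and 0.176) and fell to 0.118 without the 2 libraries farthest from the median, with 0.7996 and 0.284 in the batches. In diaphragm LECs r was -0.152 (rho -0.0769, permutation p = 0.619 and 0.809). In cardiomyocytes, all of 1 batch, r was 0.733 (rho 0.594, permutation p = 0.00782 and 0.0452, adjusted p = 0.044 and 0.17) and 0.573 without 2 libraries. In heart BECs r was 0.724 (rho 0.469, permutation p = 0.011 and 0.13, adjusted p = 0.044 and 0.26), 0.653 without 2 libraries, and 0.766 and 0.392 in the batches.

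**Figure D3:**
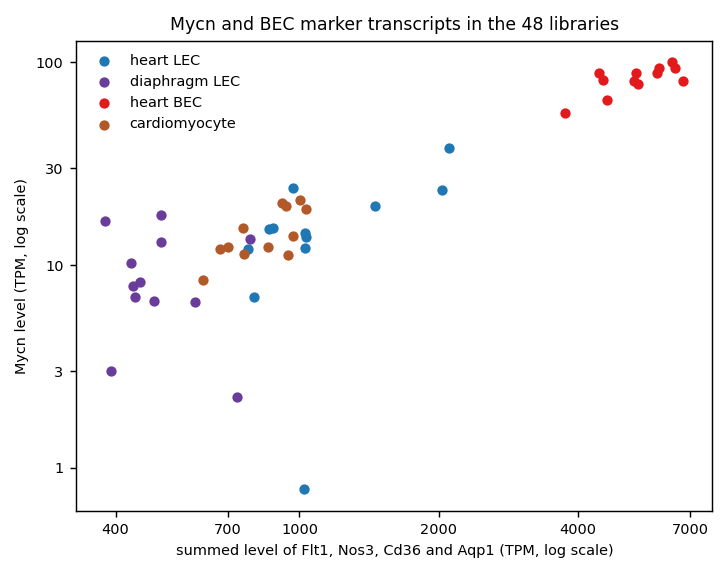
Mycn level against the summed level of 4 BEC markers in each of the 48 libraries (TPM, both axes logarithmic), coloured by population. The heart BEC libraries form a group of their own at the upper right, and 1 heart LEC library, angII+VEGFC replicate 1, lies at 0.785 TPM of Mycn.

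Between the 2 LEC populations 0 of 10 members were called by limma, and 0 had an unadjusted p under 0.05, beside 4.56% of all 32754 genes called (58.6% of these higher in heart LECs, and 45.1% after quantile normalization). The 95% interval of the log2 difference of heart against diaphragm LECs was -0.58 to 0.47 for Myc, -0.02 to 1.19 for Mycn, -0.01 to 0.46 for Max and -0.38 to 0.89 for Mxd3. A sizeable difference of Mycn thus lies within its interval. The estimate of 0.58 for Mycn became 0.92 (adjusted p = 0.0281) without heart LEC angII+VEGFC replicate 1, whose Mycn was 0.785 TPM against 15.1 and 15.2 TPM in the other libraries of its group. The estimate for Mxi1 was 0.09, with -0.69 in batch 1 and 0.86 in batch 2, so its sign differed between batches. The estimates for Mxd4 and Mxd1 were 0.25 (adjusted p = 0.461) and -0.23 (adjusted p = 0.482), and those for Mycl, Mnt and Mlx were -0.04, -0.12 and 0.02.

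Cardiomyocytes and heart BECs differ in most of the transcriptome: 74.8% of 23213 genes were called, 14.4% of them higher in cardiomyocytes, and the median log2 difference of all genes was -0.61. All cardiomyocyte libraries were sequenced in a batch of their own, so batch and population cannot be told apart. Of the members 9 of 10 were lower, with Mycn (-2.45, SE 0.13, adjusted p = 3.23e-14), Mxd1 (-1.82, SE 0.15) and Mxd4 (-1.42, SE 0.11) far below the median of all genes. Max (-1.09), Mlx (-1.07), Mxi1 (-1.04), Mxd3 (-0.73), Mnt (-0.51) and Mycl (-0.39) lay nearer to it. Mycl reached 1 TPM in 5 of 12 heart BEC and 1 of 12 cardiomyocyte libraries. It thus passed the 1 TPM filter only through heart BECs, so its call is not support for a difference. Without the filter 8 members were called. Myc did not pass (0.14, SE 0.31, adjusted p = 0.685), which is 0.75 above the median of all genes.

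This split depended on the scaling. After quantile normalization the median of all genes was -0.14 and 41.6% of the 11676 genes called were higher, and 5 members were lower and 1, Myc, higher (0.89, adjusted p = 0.0183). Mnt, Mxi1 and Mxd3 were then no longer called (-0.03, -0.30 and -0.30), and Mycl was at 0.03. Without heart BEC angII+VEGFC replicate 2 Mxd3 was not called either (-0.49, adjusted p = 0.0677), and Mycl lost its call without any one of 8 of the 24 libraries.

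Treatments were compared within each population, with the 3 contrasts of a population sharing their groups. No member was called by limma in any of the 12 contrasts. In heart LECs, angII against ctrl gave 0 of 9 members called, 3 with an unadjusted p under 0.05, beside 0.0261% of 26803 genes called and 10.9% of them with an unadjusted p under 0.05. The angII+VEGFC group against angII gave 0 of 9, with 1 unadjusted, and against ctrl 0 of 9 with 0 unadjusted, where 0% of all genes were called in both and 10.8% and 4.94% had an unadjusted p under 0.05. In diaphragm LECs 0 of 8 were called in each contrast with 0 unadjusted, and 0% of 23839 genes, of which 3651, 2094 and 314 had an unadjusted p under 0.05. In heart BECs 0 of 10 were called in each contrast, with 2, 0 and 1 unadjusted for angII against ctrl, angII+VEGFC against angII and angII+VEGFC against ctrl, and 0% of 21281 genes, of which 5.40%, 2.59% and 5.51% had an unadjusted p under 0.05.

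In cardiomyocytes 0 of 9 members were called in each contrast, with 2, 0 and 0 unadjusted. Here 0.0892% of 15691 genes were called in angII against ctrl, 0% in angII+VEGFC against angII and 0.663% in angII+VEGFC against ctrl, and 9.85%, 2.41% and 12.9% had an unadjusted p under 0.05. The members absent from these counts did not reach 1 TPM in 3 libraries of the population, which concerned Mycl in heart LECs and cardiomyocytes and Mycl and Mxd3 in diaphragm LECs.

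The members with the smallest p after angiotensin II were repressors. Mxd1 in heart LECs was at 12.7, 19.2, 9.83 and 6.25 TPM in ctrl and 20.3, 20.1, 16.9, 20.7 and 20.1 TPM in angII, so that 1 ctrl library lay within the angII range. The log2 difference was 0.89 (SE 0.31, unadjusted p = 0.0106, limma adjusted p = 0.333), or 0.65 above the median of all genes in this contrast, which was 0.23. In heart BECs Mxd1 was at 21.6, 23.5, 15.7 and 31.6 TPM in ctrl and 38.3, 35.7, 25.0, 39.0 and 42.2 TPM in angII, and 1 angII library lay within the ctrl range. The log2 difference there was 0.65 (SE 0.24, unadjusted p = 0.0185, adjusted p = 0.848), with all genes at -0.06.

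In diaphragm LECs Mxd1 was at 20.01, 16.6, 13.1 and 14.2 TPM in ctrl and 21.4, 14.7, 34.04, 20.7 and 27.8 TPM in angII (log2 difference 0.49, adjusted p = 0.385, with all genes at 0.28). In cardiomyocytes it was at 7.94, 6.37, 6.23 and 5.12 TPM in ctrl and 12.1, 8.31, 6.28, 9.47 and 10.5 TPM in angII (log2 difference 0.50, adjusted p = 0.54, with all genes at 0.12). In both the groups overlapped. The heart populations came from the same mice, so these are not separate animals, and within the batches the endothelial differences were between 0.17 and 0.86.

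Mxi1 showed a similar spread. In heart LECs it was at 3.43, 10.6, 5.93 and 11.4 TPM in ctrl and 12.0, 19.0, 9.87, 17.3 and 9.71 TPM in angII (0.89, SE 0.34, unadjusted p = 0.0185, adjusted p = 0.371), and in heart BECs at 16.0, 17.5, 14.2 and 13.4 TPM in ctrl and 16.6, 20.04, 34.3, 17.6 and 24.7 TPM in angII (0.46, SE 0.21, unadjusted p = 0.0489, adjusted p = 0.92). The third member of heart LECs with an unadjusted p under 0.05 was Myc, at 548, 288, 310 and 336 TPM in ctrl and 235, 181, 159, 389 and 209 TPM in angII (-0.67, unadjusted p = 0.0186, adjusted p = 0.372), where 1 angII library lay within the ctrl range.

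In heart LECs the summed level of the 4 BEC markers was 774 to 1026 TPM in ctrl and 1028 to 2107 TPM in angII. These ranges did not overlap but nearly met. The cardiomyocyte markers there summed to 82.4 to 176 and 115 to 570 TPM, and the hemoglobin genes to 6.98 to 2179 and 2061 to 6525 TPM, both with overlap between the groups. The LEC markers were at 1582 to 2540 TPM in ctrl and 1596 to 2527 TPM in angII. Mxd1 and Mxi1 were higher and Myc was lower in heart BECs than in heart LECs, and the part of these markers in the values of Mxd1, Mxi1 and Myc was not tested. In heart BECs the BEC markers themselves were at 3758 to 5353 TPM in ctrl and 4620 to 6773 TPM in angII, and the hemoglobin genes at 5212 to 7968 and 5736 to 31233 TPM.

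**Figure D4:**
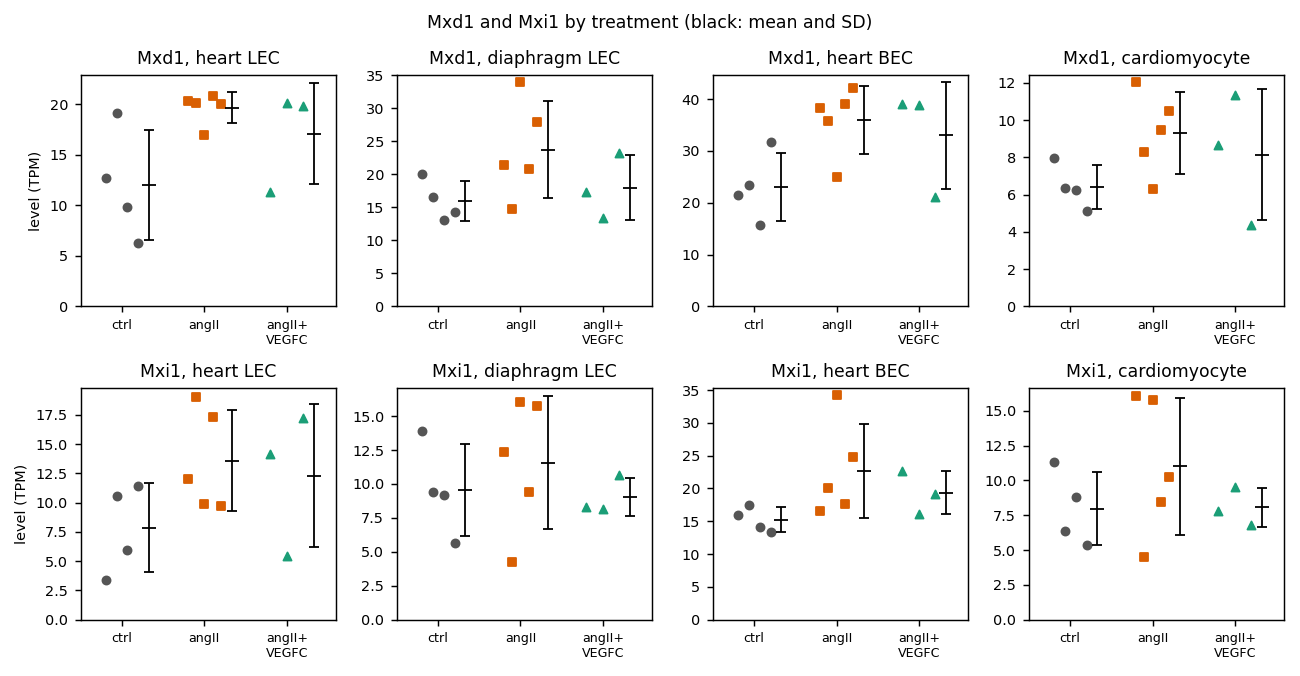
Level of Mxd1 (upper row) and Mxi1 (lower row) in TPM by treatment in the 4 populations, each point a library, with the mean and SD in black (n = 4 ctrl, 5 angII, 3 angII+VEGFC). The Mxd1 means in angII exceed those in ctrl in each population, from 9.32 against 6.41 TPM in cardiomyocytes to 36.1 against 23.1 TPM in heart BECs, but the groups overlap and no difference passed after adjustment.

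Mycn in the LECs moved with single libraries. In heart LECs it was at 6.98, 12.0, 23.9 and 14.3 TPM in ctrl, 19.6, 23.5, 12.1, 13.7 and 37.9 TPM in angII, and 0.785, 15.1 and 15.2 TPM in angII+VEGFC. The groups overlapped. The log2 difference of angII+VEGFC against angII, -1.54 (SE 0.69, adjusted p = 0.446), was -0.08 without the library at 0.785 TPM, and that of angII+VEGFC against ctrl went from -0.93 to 0.40. In diaphragm LECs it was at 16.5, 12.9, 2.23 and 17.7 TPM in ctrl, 7.92, 10.2, 6.97, 6.56 and 13.5 TPM in angII, and 3.01, 6.64 and 8.25 TPM in angII+VEGFC, with log2 differences of -0.15 for angII against ctrl (adjusted p = 0.884), -0.88 for angII+VEGFC against angII (adjusted p = 0.604) and -1.03 for angII+VEGFC against ctrl (adjusted p = 1.00).

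In cardiomyocytes the members with the smallest p were Mxd4 and Mxd3 in angII against ctrl. Mxd4 was at 29.4, 20.1, 20.2 and 17.2 TPM in ctrl and 38.3, 23.5, 31.3, 23.9 and 30.6 TPM in angII (0.48, SE 0.20, adjusted p = 0.426). Mxd3 was at 0.873, 0.383, 0.929 and 0.750 TPM in ctrl and 2.48, 1.10, 1.03, 2.17 and 8.74 TPM in angII (0.98, SE 0.41, adjusted p = 0.443). Mxd3 reached 1 TPM in 0 of 4 ctrl, 5 of 5 angII and 2 of 3 angII+VEGFC libraries. It thus passed the 1 TPM filter only through the treated groups, so the separation of ctrl and angII is not support for a difference. In the same libraries the 5 leukocyte markers summed to 58.9 to 66.0 TPM in ctrl and 92.4 to 186 TPM in angII, and the 5 fibroblast markers to 2116 to 3068 and 3060 to 4489 TPM. The part of these cells in the values of Mxd3 and Mxd4 was not tested.

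Max in cardiomyocytes was at 22.5, 18.0, 18.0 and 17.5 TPM in ctrl, 20.6, 16.9, 23.7, 22.8 and 21.4 TPM in angII, and 24.8, 26.2 and 24.05 TPM in angII+VEGFC. The log2 differences of angII+VEGFC were 0.38 against ctrl (SE 0.19, adjusted p = 0.413) and 0.23 against angII (SE 0.19, adjusted p = 1.00). In heart BECs Max was at 36.7, 40.3, 51.8 and 39.8 TPM in ctrl and 56.7, 43.6 and 59.0 TPM in angII+VEGFC (0.34, SE 0.15, unadjusted p = 0.0488, adjusted p = 0.902). Myc in cardiomyocytes differed by 0.55 between angII+VEGFC and ctrl (adjusted p = 0.623), and by 1.17 (adjusted p = 0.0318) without angII+VEGFC replicate 3, the library with 47.5 TPM against 162 and 193 TPM in the others of its group.

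Among the remaining contrasts, the smallest p belonged to Mlx in diaphragm LECs between angII+VEGFC and angII (0.54, adjusted p = 0.585), to Mxd1 in heart LECs between the same groups (-0.54, adjusted p = 0.583, beside Mycn), to Mxd3 in heart LECs between angII+VEGFC and ctrl (-0.89, adjusted p = 0.915) and to Mxd4 in diaphragm LECs between angII and ctrl (-0.36, adjusted p = 0.464, beside Mxd1). In heart BECs they were Mycn (0.22) and Max (0.21) between angII+VEGFC and angII, both with an adjusted p of 1.00, and Mxd4 (0.27, adjusted p = 0.948, beside Max) between angII+VEGFC and ctrl. Myc in diaphragm LECs between angII+VEGFC and ctrl (-0.29, adjusted p = 1.00) and Mxd3 in cardiomyocytes between angII+VEGFC and angII (-0.60, adjusted p = 1.00) complete them.

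Whether the treatments acted differently on the populations was tested by 6 interactions over the 36 endothelial libraries. None of the 10 members was called by limma in any of them, with 1 unadjusted p under 0.05. All genes called were 0.00611% of 32754 for angII against ctrl between the LEC populations and 0% in the other 5, where 1600 to 3616 genes had an unadjusted p under 0.05. The member with the smallest p was Myc for angII against ctrl between heart LECs and heart BECs (-1.14, SE 0.58, unadjusted p = 0.0587, adjusted p = 0.71) and Mycn for angII+VEGFC against angII between the same populations (-1.56, SE 0.74, unadjusted p = 0.0416, adjusted p = 0.768). Without heart LEC angII+VEGFC replicate 1 the interaction of Mycn was -0.50. For the LEC populations these were Mxi1 (0.61, adjusted p = 0.692) and Mlx (-0.66, adjusted p = 0.988), and for diaphragm LECs against heart BECs Mxd4 (-0.64, adjusted p = 0.511) and Max (-0.45, adjusted p = 0.743).

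Other genes of the pathway were read from fixed lists. Of 26 MYC growth targets, genes for ribosome assembly, polyamine and nucleotide synthesis and metabolism, 9 were higher and 3 lower in diaphragm LECs than in heart BECs, with a median log2 difference of 0.28 where all genes had 0.03. Of all genes, 7.54% were higher and 9.01% lower there. Srm, the spermidine synthase, was higher by 0.94 (SE 0.16, limma adjusted p = 2.12e-05) and Cad, an enzyme of pyrimidine synthesis, by 0.83 (SE 0.27, adjusted p = 0.0261), while the transferrin receptor Tfrc was lower (-0.87, SE 0.17, adjusted p = 0.000119). In heart LECs against heart BECs 4 were higher and 3 lower, with a median of 0.08 where all genes had 0.15, and where 8.94% of all genes were higher and 8.64% lower. Srm was higher there by 0.53 (adjusted p = 0.0161), and Tfrc (-0.79, adjusted p = 0.000495) and the lactate dehydrogenase Ldha (-0.69, adjusted p = 3.93e-06) were lower. Between the LEC populations 1 of 26 passed, beside 4.56% of all genes called, so this count is not read as a result about the list. It was Odc1 of polyamine synthesis, higher in heart LECs by 0.67 (adjusted p = 0.00231). In cardiomyocytes against heart BECs 24 of 26 were lower, beside 64.1% of all genes. In the 12 treatment contrasts 0 of 26 were called by limma, with 0 to 3 unadjusted.

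Of 7 cell cycle markers, 6 were lower in diaphragm LECs and 3 in heart LECs than in heart BECs, beside 9.01% and 8.64% of all genes, and 0 were higher. Cdk1, the mitotic kinase, differed by -2.82 (SE 0.40, adjusted p = 8.92e-07) and -1.51 (SE 0.40, adjusted p = 0.00568).

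Among other partners Mlxip, the glucose sensor that pairs with MLX, had a mean of 22.6 ± 2.42 TPM in heart BECs against 9.08 ± 2.32 TPM in the LECs of the heart and 10.9 ± 7.98 TPM in those of the diaphragm (SD, n = 12). It was lower in heart LECs (-1.28, SE 0.18, adjusted p = 1.56e-06) and in diaphragm LECs (-1.17, SE 0.18, adjusted p = 6.04e-06) than in heart BECs. Its target Arrdc4, an arrestin-domain protein, was also lower, by -0.51 (adjusted p = 0.00463) and -0.59 (adjusted p = 0.000932), while the other target on the list, Txnip, did not pass. Mlxipl and Mga did not pass in either comparison.

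Of 9 MYC cofactors 2 were lower in each LEC population than in heart BECs, beside 8.64% and 9.01% of all genes in heart and diaphragm LECs. They were Ep400 of the TIP60 complex (-0.96 in heart and -0.80 in diaphragm LECs) and Zbtb17, also called MIZ1, through which MYC represses genes (-0.57 and -0.75). Of 4 corepressor genes only Hdac1 passed, higher in heart LECs by 0.24 (adjusted p = 0.0232) and in diaphragm LECs by 0.46 (adjusted p = 1.21e-05), where 8.94% and 7.54% of all genes were higher. Of 9 genes that set MYC protein stability 0 passed in heart LECs by limma, with 2 unadjusted, and 1 in diaphragm LECs, the kinase Aurka (-1.09, adjusted p = 0.00972). In cardiomyocytes against heart BECs 9 of 9 cofactors, 4 of 4 corepressors and 7 of 9 stability genes were lower, beside 64.1% of all genes, 1 stability gene was higher, and of the other partners Mga (-1.84) and Mlxip (-1.56) were lower and Mlxipl higher (1.12).

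Of 11 immediate early genes, which cells induce within minutes of stress or tissue digestion and to which Myc is often counted, 6 were lower and 1 higher in heart LECs than in heart BECs. In diaphragm LECs 4 were lower and 1 higher. The shares of all genes called in these comparisons were 17.6% and 16.6%. Their summed level was 25469 to 37726 TPM in heart LECs, 27161 to 42384 in diaphragm LECs, 27580 to 41624 in heart BECs and 8614 to 12987 TPM in cardiomyocytes. The endothelial ranges overlapped, and the part of tissue digestion in the Myc levels was not tested.

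Over the means of the 12 groups of population and treatment, 15323 genes with at least 5 TPM in a group were ranked by how closely they followed a member. Points of one population share libraries and mice, so the values are descriptions. The guanylate kinase Guk1 (Pearson's r 0.970) and Jade1 (0.969) were among the 3 closest to Myc. The NAD-consuming ectoenzyme Cd38 (0.989), the Notch feedback regulator Nrarp (0.985) and Zfp46 (0.983) were closest to Mycn, with Cd38 at a mean of 160 TPM in heart BECs and 25.9, 16.6 and 25.4 TPM in heart LECs, diaphragm LECs and cardiomyocytes. Micall2 (0.914) and Trak1 (0.903) were among the 3 closest to Mycl, whose own values were near 0.

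Myc varied widely among heart BEC libraries, and the same mice that were high there were high in cardiomyocytes. In ctrl replicates 1 to 4 the heart BEC and cardiomyocyte values were 185 and 107, 69.1 and 63.5, 35.5 and 59.6, and 65.8 and 82.0 TPM. In angII replicates 1 to 5 they were 179 and 168, 106 and 135, 44.4 and 67.9, 106 and 139.9, and 123 and 122 TPM. In angII+VEGFC replicates 1 to 3 they were 158 and 162, 221 and 193, and 31.8 and 47.5 TPM. Each treatment group thus held mice at both ends. The mice highest in heart BECs were 9, 8 and 8 months old in ctrl, angII and angII+VEGFC, and the lowest were 16, 16 and 8 months old; the part of age in this relation was not tested.

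Over the 12 mice Pearson's r of log2(TPM + 1) was 0.920 (permutation p = 0.00016, adjusted p = 0.00192 over the 12 relations) and Spearman's rho was 0.853 (permutation p = 0.0007, adjusted p = 0.0084). It was 0.858 without the 2 mice farthest from the median, 0.928 and 0.949 in the mice of endothelial batches 1 and 2, and 0.944 after subtracting the means of the treatment groups. The cardiomyocyte libraries were sequenced apart from the BEC libraries. For the 8255 genes that averaged 5 TPM or more in both populations the median r was 0.136. With Myc itself counted, 10 genes (0.121%) had an r at or above that of Myc. Among them were the cytokine gene Il6 (0.956), the hypoxia and fasting responsive Angptl4 (0.935) and Sphk1 (0.924). Mxd1 had an r of 0.710 and Mycn one of 0.207.

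The heart LECs of the same mice did not follow. Between Myc in heart LECs and heart BECs r was 0.212 (rho 0.168, permutation p = 0.514 and 0.607), between heart LECs and cardiomyocytes 0.0191 (rho -0.0210, permutation p = 0.961 and 0.951), and between diaphragm LECs and heart BECs -0.360 over 11 mice (rho -0.391, permutation p = 0.268 and 0.237). Whether these correlations differ from that of heart BECs and cardiomyocytes was not tested. The pan-endothelial marker sum was 898 to 1462 TPM in heart BECs and 155 to 264 TPM in cardiomyocytes, while the mean Myc levels were 110 and 112 TPM. The heart BECs held 77.4 to 195 TPM of the cardiomyocyte markers that reached 5459 to 14234 TPM in cardiomyocytes. The part of RNA carried between these libraries was not tested.

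**Figure D5:**
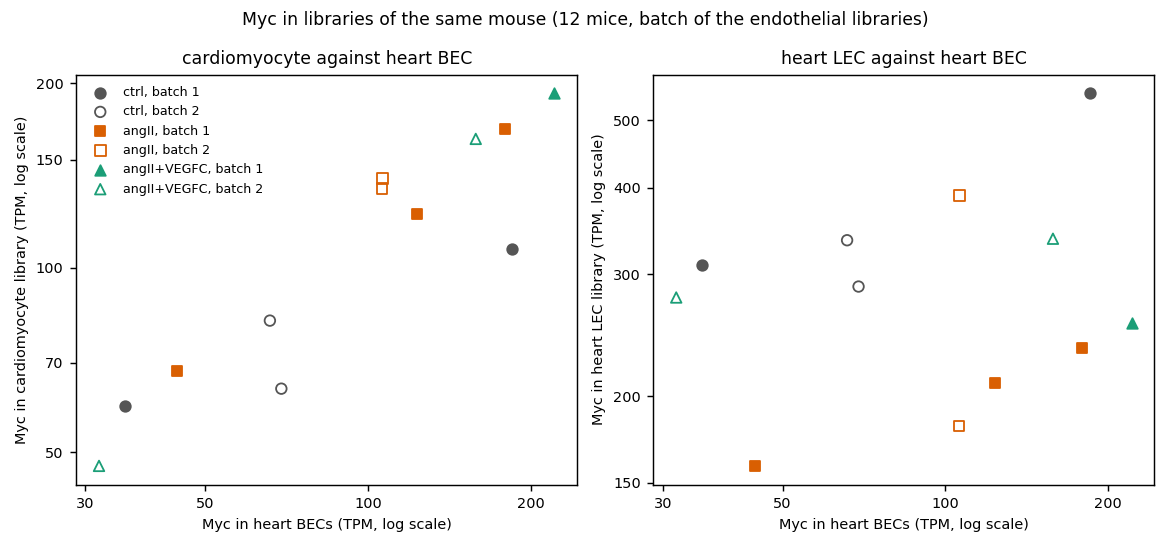
Myc in cardiomyocytes (left) and heart LECs (right) against Myc in heart BECs of the same mouse (TPM, logarithmic axes, 12 mice; shape and colour, treatment; filled symbols, endothelial batch 1; open symbols, batch 2). The left panel rises from 31.8 and 47.5 TPM to 221 and 193 TPM, whereas the right panel shows no such order.

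The immediate early sum and Myc were also compared over the 12 libraries of each population. Pearson's r was 0.621 in diaphragm LECs (rho 0.713, permutation p = 0.0241 and 0.0117, adjusted p = 0.0723 and 0.0702), 0.496 without 2 libraries, and 0.882 and 0.441 in the batches. It was 0.551 in cardiomyocytes (rho 0.573, permutation p = 0.0646 and 0.0567), 0.182 in heart LECs (rho 0.182, permutation p = 0.567 and 0.574) and -0.00718 in heart BECs (rho -0.0839, permutation p = 0.978 and 0.8). None of these 4 passed after adjustment over the 12 relations.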

How the data were processed

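RNA was measured in 48 libraries made with a Smart-Seq ultra low input kit and Nextera XT. Per the labels and the study's methods, the authors aligned reads to GRCm38 with STAR 2.5.3a, quantified Ensembl genes with Salmon 0.12.0 in alignment mode and deposited one matrix of TPM per gene, without counts, so counting error cannot be given. The group, mouse, age and sequencing batch of each library came from the labels, whose ages in months differ from the weeks in the methods. The 10 members and all gene lists were chosen with earlier results of these data known. Symbols were matched for 54723 of 54752 genes. No libraries were identical.

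Values were analysed as log2(TPM + 1) with limma 3.58.1 in R 4.3.3, with a mean-variance trend, keeping genes that reached 1 TPM in 3 or more libraries, with Benjamini-Hochberg adjustment over all genes and a threshold of 0.05. The study itself tested counts within each cell type with DESeq2, which needs values not used here, and also adjusted for surrogate technical variables. For interactions with treatment over the 3 endothelial groups it used limma-voom. Here surrogate variables were not part of the main fit. Age and batch were covariates, and age alone where cardiomyocytes entered, which had their own batch. Members called, the 2 with the smallest p per treatment contrast and Mycn in LECs are given; of interactions the smallest p, of lists the 3 largest called differences, and the 3 genes most like each MYC gene, of which 1 for Myc and 1 for Mycl are not reported here. Population contrasts weight the 3 treatments equally.

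The mouse number in the labels pairs the populations, since libraries with one number come from the same animal. The consensus correlation within mice was 0.130 for the endothelial fit and 0.0186 for cardiomyocytes with heart BECs. Treatment groups hold different mice. Correlations were tested by two-sided permutation with 100000 resamples in Python 3.11.15 with scipy 1.17.1. Alternatives were a pseudocount of 0.1, no filter, no covariates, the number of genes at 1 TPM as a covariate, quantile normalization, the first residual component as a covariate, only the groups compared, the mouse as a block, and each library left out in turn. The code was tested on simulated data.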

Additional observations from a re-analysis of the deposited data

Results flagged for a closer look

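In 11 of 80 sets of member values, 1 library lay far from the others of its treatment group by Dixon's criterion. For normally distributed values chance alone sets apart about 1 in 20. The criterion was applied to TPM and the rate over all genes is not given, so the 11 are not read as an excess. Where all other libraries of a group are at 0, any value above 0 is set apart. In cardiomyocytes these were Mycn at 19.48 TPM in ctrl replicate 4, Max at 22.46 TPM in ctrl replicate 1, Mnt at 1.026 TPM in ctrl replicate 4 and Mxd3 at 8.739 TPM in angII replicate 5. In heart LECs they were Mycl at 0.8541 TPM in ctrl replicate 2, with the other ctrl libraries listed at 0, Mxd4 at 31.25 TPM in ctrl replicate 1, Mxd1 at 16.91 TPM in angII replicate 3 and Mlx at 47.3 TPM in angII replicate 1. In diaphragm LECs they were Mycl at 0.06351 TPM in ctrl replicate 1, again with the others listed at 0, Max at 45.91 TPM in angII replicate 3 and Mxd3 at 3.274 TPM in angII replicate 1. No heart BEC library was set apart. Groups of 3, such as the heart LEC angII+VEGFC libraries with Mycn at 0.785, 15.1 and 15.2 TPM, are too small for this criterion.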

How the results depend on the processing

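The 72 member values were recomputed under each alternative, which gave 2346 values. Of these 2253 kept their direction and their side of the threshold, 35 lost their call, 11 gained one and 47 changed sign. With the mouse as a replicate block, random or fixed, 7, 0, 7 and 9 members were called in the population comparisons, as without it, and no call changed in this paired analysis, while all genes called between the LEC populations went from 1492 to 2301 with the fixed block. Counts of all genes called in treatment contrasts also moved by over 1.5 times. Over the alternatives they ranged from 0 to 31 in heart LECs between angII and ctrl (7 as reported, 31 without ctrl replicate 1), from 0 to 473 in cardiomyocytes between angII and ctrl (14) and from 0 to 852 between angII+VEGFC and ctrl (104, with 852 without angII+VEGFC replicate 3). Where 0 were reported, the highest counts were 520 in diaphragm LECs between angII and ctrl, with the residual component, 3 between angII+VEGFC and angII there, 5 and 12 in heart LECs between angII+VEGFC and angII or ctrl (12 without angII+VEGFC replicate 2), and 3 and 2 in heart BECs between ctrl and angII or angII+VEGFC. Of the interactions, that of angII between the LEC populations ranged from 0 to 33 (2 as reported, 33 without heart LEC ctrl replicate 2), and the other 5 reached 4 to 11. Leaving out each library in turn, the number of members called went from 0 to 1 in cardiomyocytes between angII+VEGFC and ctrl (Myc, without angII+VEGFC replicate 3) and from 0 to 1 between heart and diaphragm LECs (Mycn, without heart LEC angII+VEGFC replicate 1).

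Values that changed sign were all uncalled except that of Mycl in cardiomyocytes. Left out in turn, log2 differences ranged from -1.45 to 0.40 for Mycn in heart LECs between angII+VEGFC and ctrl, and from -0.82 to 0.18 for Mycn in diaphragm LECs between angII and ctrl. For heart LECs against heart BECs they ranged from -0.19 to 0.10 for Mnt and from -0.038 to 0.17 for Mlx. For heart against diaphragm LECs they ranged from -0.13 to 0.0078 for Myc, from -0.14 to 0.055 for Mycl, from -0.29 to 0.014 for Mnt, from -0.018 to 0.24 for Mxi1 and from -0.060 to 0.14 for Mlx. For diaphragm LECs against heart BECs they ranged from -0.0071 to 0.24 for Mnt and from -0.071 to 0.081 for Mlx, and for cardiomyocytes against heart BECs from -0.17 to 0.37 for Myc. Quantile normalization turned Mxi1 between the LEC populations to -0.074, Mnt between diaphragm LECs and heart BECs to -0.0023 and Mycl between cardiomyocytes and heart BECs to 0.026. The number of genes at 1 TPM as a covariate turned Mxd4 in diaphragm LECs between angII and ctrl to 0.0097, Mnt between heart LECs and heart BECs to 0.20, and Mycl and Mnt between the LEC populations to 0.022 and 0.084. The fixed block turned Mlx between the LEC populations to -0.031. The causes were not tested. TPM carries no depth, so low members such as Mycl, Mxd3 and Mnt have an unknown counting error.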
